A study of Homo sapiens with 14 samples.

Results

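The comparison described here is that of an unmodified miR-34a duplex with a control siRNA, across all genes of HEK293T cells, and it takes in 10 of the 14 RNA-seq libraries of the series. Its members were chosen by label: 5 libraries from cells transfected with the wild-type duplex (miR-34a-WT) and 5 from cells transfected with the AllStars negative control siRNA of Qiagen (control), all collected 24 h after transfection. The study asked how pairing of a microRNA outside its seed affects targeting, and the other 4 libraries received a duplex with abasic residues in the miR-34a strand (miR-34a-RS). HEK293T is a line derived from human embryonic kidney that carries the SV40 large T antigen, so the cells of both groups share 1 line and its viral protein. The control is itself a transfected small RNA duplex, and untreated cells are not analysed here. Nothing in the labels says that the 5 libraries of a group came from separate cultures, so every p-value below measures the spread between libraries, which may be technical.

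MicroRNAs guide Argonaute proteins to messenger RNAs that pair with the seed, the bases near the 5′ end of the guide strand, and the paired messages are translated less and degraded sooner. miR-34a belongs to a family induced by p53 and is best known for lowering cell cycle and NOTCH pathway messages. Motile cilia and flagella, which take up much of the account below, are built on an axoneme of microtubule doublets moved by dynein arms, and their parts are carried in by intraflagellar transport. The genes for these parts are switched on in multiciliated cells by FOXJ1 and by RFX factors, which bind a palindromic promoter element called the X-box.

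The strand sequences and a few 3′ UTR sites are shown because the fallen genes are described by them. The mature sequences are those of RefSeq, with bases 2 to 8 (the seed) in capitals, and the sites are 23-base stretches of GENCODE release 29 transcripts (GRCh38) with the 8mer, CACTGCCA, in capitals. An 8mer pairs with the whole seed and is followed by A, a 7mer-m8 (CACTGCC) lacks that A, a 7mer-A1 (ACTGCCA) lacks the match to base 8, and a 6mer is ACTGCC.
hsa-miR-34a-5p, the guide: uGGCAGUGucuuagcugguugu
hsa-miR-34a-3p, the other arm: cAAUCAGCaaguauacugcccu
MPP2 (chr17:43877634-43877656, minus strand): cagcacagaggcgtgCACTGCCA
DPYSL4 (chr10:132205129-132205151, plus strand): aacctggggagatgtCACTGCCA
SNX12 (chrX:71060170-71060192, minus strand): gtgggggcaactcacCACTGCCA
SGPP1 (chr14:63685543-63685565, minus strand): tactgcctgtttttaCACTGCCA
ACSL4 (chrX:109642109-109642131, minus strand): tcccaaaagctagaaCACTGCCA
KIF1A (chr2:240714903-240714925, minus strand): aaattcagaagcctcCACTGCCA
EPHB2 (chr1:22914741-22914763, plus strand): ggcctcaccaaagccCACTGCCA
EFNB1 (chrX:68841329-68841351, plus strand): tggcaatggggtagtCACTGCCA
All 8 genes fell with miR-34a-WT, by values given where each is described. The transfected duplex was not measured in these poly(A)-selected libraries.

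The 10 libraries held 22242203 to 34883809 counts in genes. Of 18321 genes tested, 7373 (40.2%) differed at an adjusted p under 0.05 (edgeR's quasi-likelihood test, Benjamini-Hochberg): 3469 (18.9%) rose and 3904 (21.3%) fell with miR-34a-WT, and the median log2 fold change of all tested genes was -0.02. Most changes were small, with 154 genes (0.841%) at least 2-fold higher and 271 (1.48%) at least 2-fold lower. The libraries of the groups did not overlap for 5295 genes (28.9%). Among protein-coding genes 23.6% rose and 24.7% fell, against 5.8% and 14% of lncRNA genes. Of the line's own markers the neurofilament genes NEFL, NEFM and INA fell by 0.57, 0.47 and 0.70 on the log2 scale, CDH2 rose by 0.11 (a call lost without any one of control replicates 4 and 5 and miR-34a-WT replicates 1, 3 and 5), and the summed level of all 10 markers was 655 to 685 CPM (read counts scaled to the library size) in control and 578 to 633 in miR-34a-WT libraries. Markers of blood cells (CD3E at 0), fibroblasts (COL1A2 at 0) and hepatocytes or keratinocytes summed to 2.66 to 3.68, 25 to 34.4 and 0.127 to 0.405 CPM over both groups. In bulk RNA a lower level can mean fewer cells of a kind or less RNA in each cell, and these cannot be told apart.

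**Figure D1:**
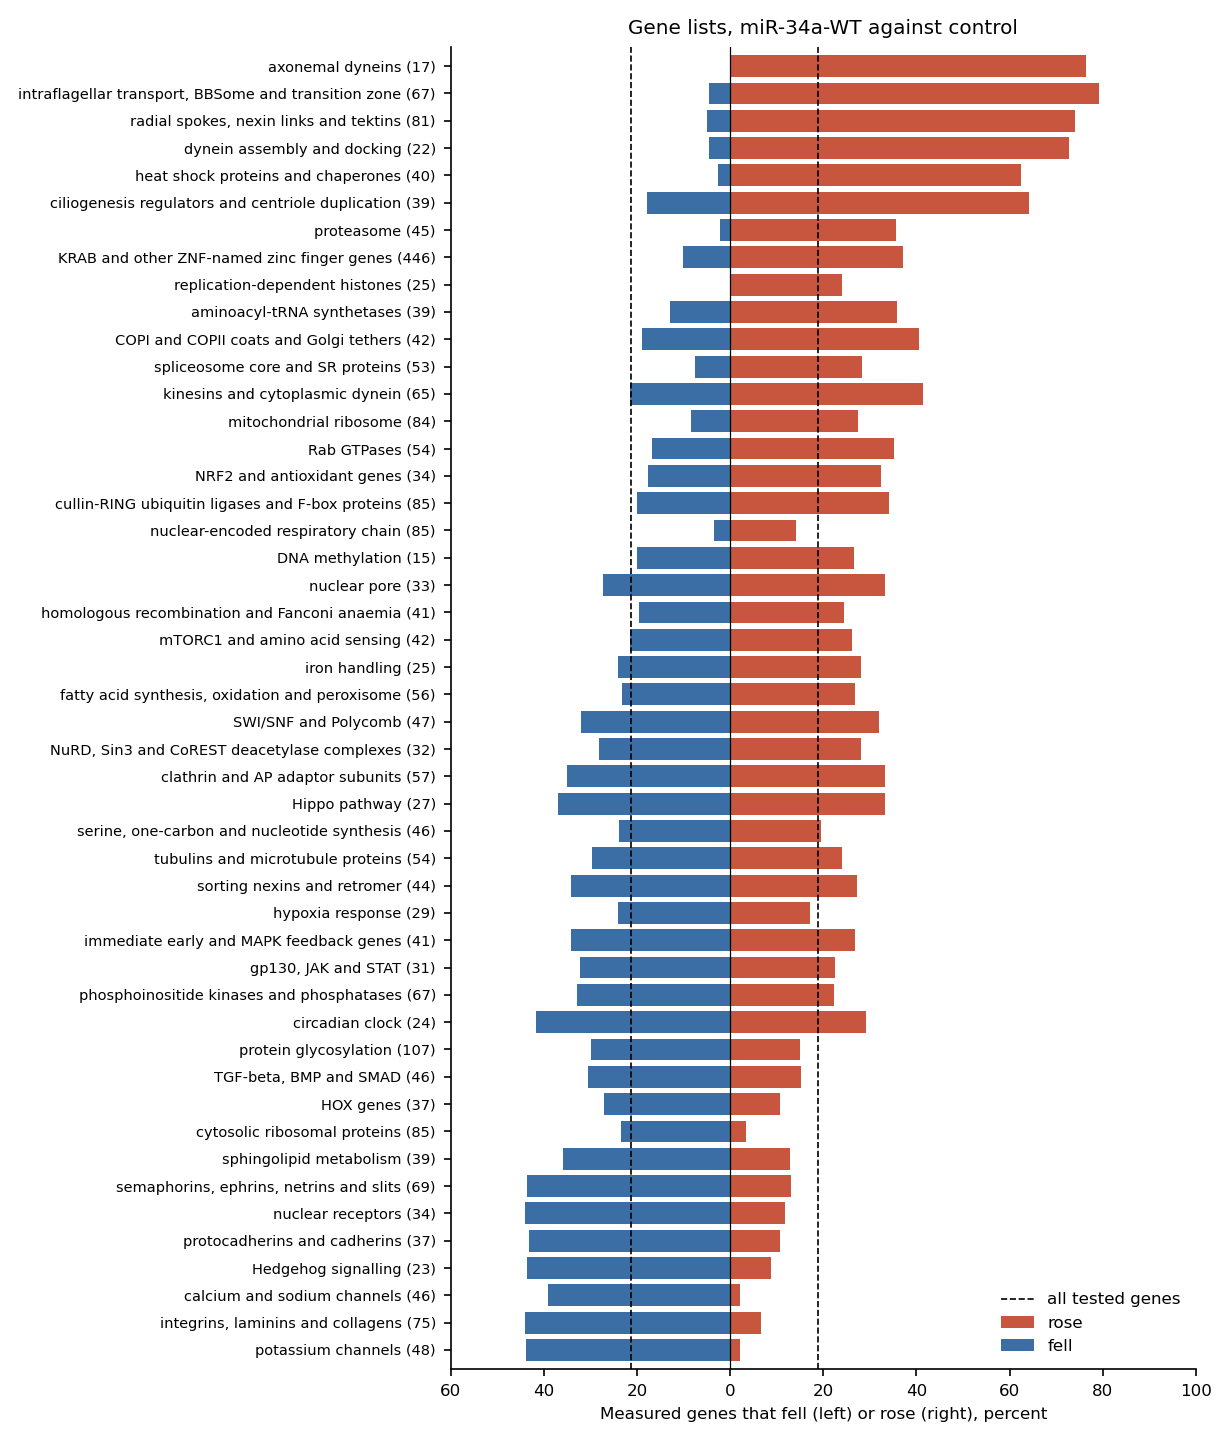
Share of measured genes that rose or fell with miR-34a-WT against control in each of 48 gene lists (x axis, percent of measured members, edgeR adjusted p under 0.05), drawn to the right for rises and to the left for falls, with dashed lines at the shares of all tested genes (18.9% and 21.3%) and the number measured in brackets. The 4 cilium lists stand at the rising end, and channels, matrix and nuclear receptor genes at the falling end.

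Among the steepest falls below the 8 largest were genes of transcription, membrane traffic and the nuclear envelope. TMEM109, an ion channel protein of the endoplasmic reticulum and nuclear membranes, read 140, 155, 162, 155 and 168 CPM in the control libraries and 50.3, 55.4, 50.2, 52.2 and 50.9 CPM with miR-34a-WT. NUP210, a membrane-spanning nuclear pore protein, read 394, 462, 415, 443 and 428 CPM against 146, 135, 145, 148 and 150 CPM. In both genes every miR-34a-WT library lay far below every control library, with log2 falls of 1.59 and 1.57 (SE 0.05 for each). TBC1D13, which switches off a Rab GTPase, read 74.5, 82.2, 88.5, 88.9 and 91.3 CPM in control and 25.8, 27.1, 29.4, 28.8 and 27.3 CPM with miR-34a-WT. RDH11, a retinol dehydrogenase, read 122, 112, 115, 114 and 108 CPM against 41.5, 42.6, 37.5, 41.3 and 40.5 CPM. Neither gene's groups overlapped, and the adjusted p (edgeR's quasi-likelihood test) was 3.84e-17 for TBC1D13 and 6.98e-18 for RDH11.

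The rest of the falls ranked 9 to 22 by size held 3 further transcription factors: E2F5 (-1.66 on the log2 scale), MYB (-1.63) and the forkhead gene FOXN3 (-1.52). The scaffold gene MPP2 fell from 80.3 ± 4.55 to 25.8 ± 0.935 CPM (SD, n = 5 in each group), the collapsin response mediator gene DPYSL4 from 27.8 ± 3.51 to 9.16 ± 1.53 CPM and the sorting nexin gene SNX12 from 86.1 ± 2.32 to 28.9 ± 1.96 CPM. The same ranks held CDK6, TK1 and SYT1, a kinase, a thymidine kinase and a synaptic vesicle calcium sensor. GRN, which encodes the secreted and lysosomal protein progranulin, completes the 14 and was the only one of them with no seed 6mer in its 3′ UTR: 5 had an 8mer, 6 a 7mer-m8 and 2 a 7mer-A1.

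GRN read 181, 212, 217, 207 and 232 CPM in control and 67.8, 70.6, 67.1, 68.0 and 71.7 CPM with miR-34a-WT. The lowest control library was thus above every miR-34a-WT library, and the fall was 1.60 on the log2 scale (SE 0.06, adjusted p 3.58e-17, edgeR). With AP3B2, a neuronal adaptor subunit that fell from 9.14 ± 0.815 to 2.72 ± 0.442 CPM, and SYP, the synaptic vesicle protein synaptophysin, which fell from 32.8 ± 3.12 to 12.1 ± 0.907 CPM, it was among the 3 genes lacking a seed 6mer in both 3′ UTR and coding sequence that fell most.

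**Figure D2:**
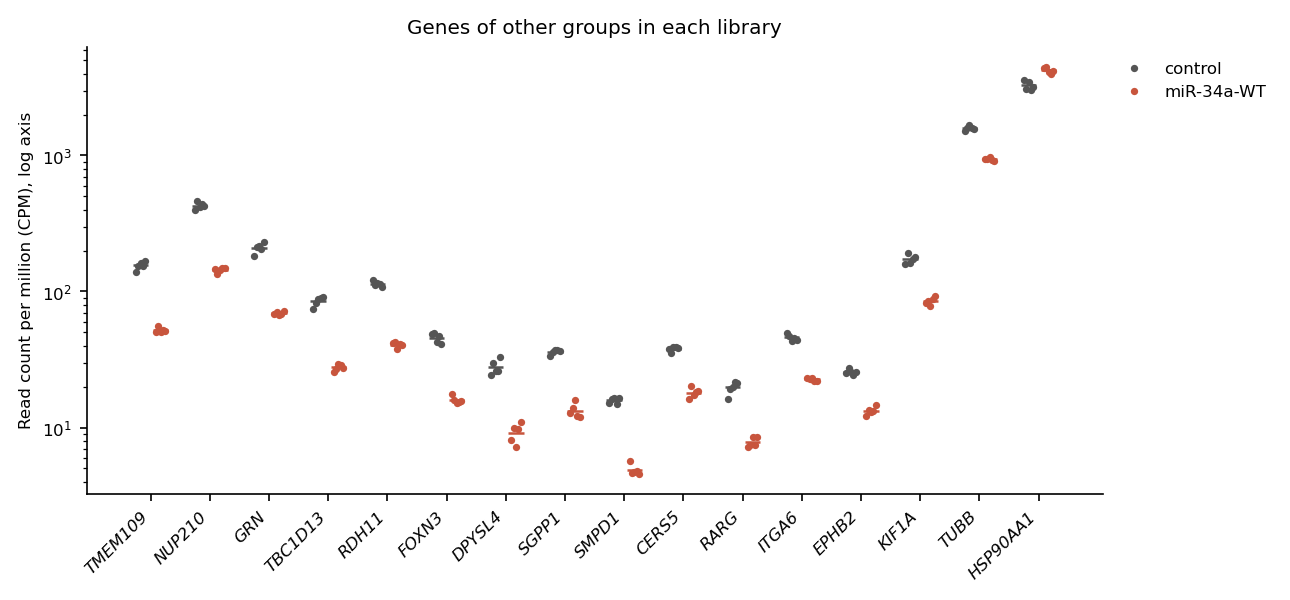
CPM (log axis) of 16 genes outside the cilium lists in each of the 5 control and 5 miR-34a-WT libraries, with a line at each group's mean. In every gene shown the groups do not overlap, and HSP90AA1 alone is higher with miR-34a-WT.

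The rises ranked 9 to 22 by size were led by MAPK15 and PIH1D2, which are described with the cilium genes, and held 12 others. RAB36, a Rab GTPase, rose from 19.9 ± 2.24 to 56.7 ± 3.03 CPM, and FAM227A rose from 17 ± 0.967 to 41.5 ± 1.82 CPM. ZNF678, a zinc finger gene, read 41.7, 43.7, 38.7, 39.3 and 34.1 CPM in control and 110, 94.2, 110, 101 and 107 CPM with miR-34a-WT, so that the groups lay well apart (1.40 on the log2 scale, SE 0.07). LRRIQ1 and SPATA17 rose by 1.33 and 1.31 and the kinase genes NEK11 and MOK by 1.30 and 1.26. CLBA1, SMIM15, CCDC191 and the non-coding genes NRAV and CASC2 rose by 1.36, 1.31, 1.25, 1.44 and 1.25.

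Genes of the ciliary axoneme and of ciliary transport rose together, from low levels. Of 185 genes measured on 4 lists (axonemal dyneins, dynein assembly and docking, radial spokes with nexin links and tektins, and intraflagellar transport with the BBSome and transition zone), 141 rose (76.2%), 7 fell (3.78%) and 37 were not called, and their median log2 fold change was 0.61. At least 2-fold rises were seen for 57 of them. These 57 make up 37% of the 154 genes of that size, whereas the lists hold 1.01% of the tested genes, and 16 of the 26 genes that rose at least 4-fold were on them. Many of these messages were scarce in control cells: 44 of the 185 had a control mean under 1 CPM and the median level was 7.7 CPM in control and 12.8 CPM with miR-34a-WT. For 18 genes the control level was below the filter on low counts, so that they entered the test through a raised group, and 16 of them rose. Among the 167 others, 125 rose. The counts of 2-fold and 4-fold rises, the 37% and the median of 0.61 were taken with the 18 kept in. Reads from overlapping genes on the other strand cannot be separated in these libraries, and among the 127 members with no such neighbour 95 rose.

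Of the axonemal dyneins, the motor proteins of the beating axoneme, 13 of 17 measured genes rose and none fell (edgeR, adjusted p under 0.05), with a median log2 fold change of 0.65. In control 4 of the 17 were below the filter on low counts, and 3 of these rose, while 10 of the other 13 rose. The median was taken with the 4 kept in. The heavy chain gene DNAH7, part of an inner arm, read 0.907, 0.663, 1.07, 0.912 and 1.08 CPM in control and 6.54, 5.02, 5.13, 5.04 and 6.16 CPM with miR-34a-WT. DNAI7, an intermediate chain gene, read 0.768, 0.835, 0.533, 0.815 and 0.494 CPM against 4.34, 3.96, 3.5, 3.4 and 4.16 CPM. Both were at low levels in every control library and higher in every miR-34a-WT library, with log2 changes of 2.60 (SE 0.13) and 2.46 (SE 0.14). DNAL1, an outer arm light chain gene, rose from 26.2 ± 1.21 to 57.7 ± 2.79 CPM and DNAL4 from 14.5 ± 0.811 to 20.2 ± 1.66 CPM. The 4 genes that did not pass were DNAH2, DNAH3, DNAH10 and DNAH17, with log2 values of 0.43, 0.01, -0.03 and -0.12. Summed over the list, the level was 122 ± 2.27 CPM in control and 201 ± 7.14 CPM with miR-34a-WT.

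Factors that fold dynein arms in the cytoplasm or dock them on the axoneme did the same in 16 of 22 cases, with 1 fall and a median of 0.50. Of the 16 that rose, 2 were below the filter on low counts in control, and among the 20 genes above it 14 rose. DNAAF1 rose from 1.68 ± 0.29 to 8.10 ± 0.89 CPM, DNAAF3 from 5.30 ± 0.898 to 9.62 ± 0.594 CPM and PIH1D2 from 3.78 ± 0.571 to 11.1 ± 1.03 CPM. LRRC46 and CCDC103 rose by 1.81 and 1.09 on the log2 scale. CFAP298 fell by 0.36, and ZMYND10, another assembly factor, stood at 4.21 ± 0.65 and 4.04 ± 0.344 CPM.

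The list of radial spokes, nexin links and tektins, which also holds every gene named CFAP, had the steepest changes: 60 of 81 rose, 36 of them at least 2-fold, 4 fell, and the median was 0.90. In control 12 of the 81 were below the filter on low counts, and 11 of these rose, while 49 of the other 69 rose. The 36 and the median were taken with the 12 kept in, so the steepness rests partly on genes that entered through a raised group. SPEF1, a microtubule-bundling protein of motile cilia, read 0.733, 1.04, 1.27, 1.01 and 1.48 CPM in control and 7.01, 7.4, 8.3, 7.52 and 8.13 CPM with miR-34a-WT. MAPK15, an atypical MAP kinase found at basal bodies, read 12.5, 13.6, 11.6, 14.9 and 16.1 CPM against 37.4, 43.5, 42.2, 39.1 and 40.7 CPM. Their groups lay apart, and SPEF1 rose by 2.81 (SE 0.12) and MAPK15 by 1.57 (SE 0.07). The radial spoke genes RSPH1 and RSPH3 rose by 2.18 and 0.81, the central pair genes SPAG16 and SPAG17 by 0.75 and 1.36, CFAP43, CFAP57 and ROPN1L by 1.01, 2.48 and 2.48 and the nexin link gene DRC3 by 0.99. CCDC113, OSCP1 and BBOF1, which are among the 8 steepest rises of genes with a mean of at least 5 CPM, reached 34 ± 1.06, 32.5 ± 1.40 and 18.1 ± 1.07 CPM from 8.37 ± 0.414, 7.98 ± 0.328 and 4.49 ± 0.508 CPM. CFAP157 and CFAP298 fell by 0.38 and 0.36, and CCDC39, which sets the spacing of the axonemal repeat, was at 0.674 ± 0.269 CPM in control and 0.640 ± 0.124 CPM with miR-34a-WT. The summed level of the list went from 516 ± 15.6 to 848 ± 16.4 CPM.

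**Figure D3:**
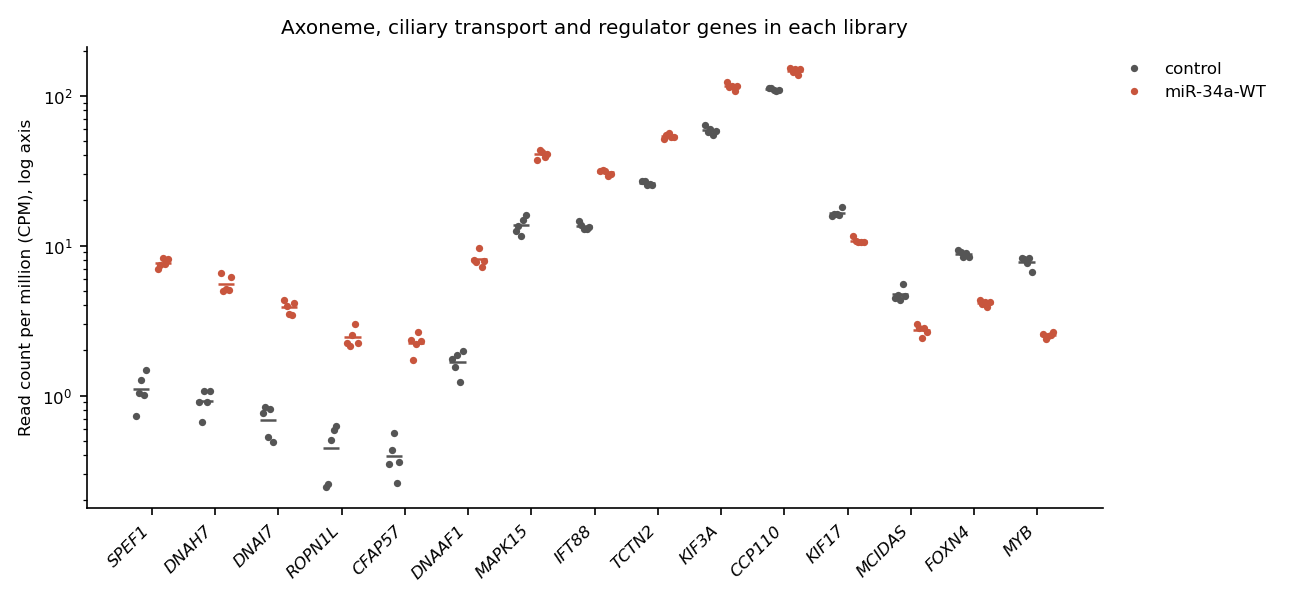
CPM (log axis) of named cilium genes in each of the 5 control and 5 miR-34a-WT libraries, with a line at each group's mean. The 11 genes from SPEF1 to CCP110 are higher in every miR-34a-WT library than in any control library, and KIF17, MCIDAS, FOXN4 and MYB are lower.

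Intraflagellar transport and transition zone genes, which primary cilia also need, changed by smaller steps from higher levels. Of 67 measured, 53 rose and 3 fell, with a median of 0.38, and only 6 rose at least 2-fold. IFT88, a core subunit of the transport train, read 14.7, 13.7, 12.9, 13 and 13.3 CPM in control and 31.5, 32.0, 31.6, 29.2 and 30.1 CPM with miR-34a-WT. KIF3A, a subunit of the kinesin motor that moves the train outward, read 64.0, 57.6, 60.4, 54.5 and 57.7 CPM against 123, 114, 116, 107 and 116 CPM. The groups were apart in both, and the log2 rises were 1.19 for IFT88 (SE 0.05) and 0.97 for KIF3A (SE 0.06). IFT22, TCTN1 and TCTN2 rose by 1.15, 1.13 and 1.04, and DYNC2LI1, of the motor that carries the train back, by 1.05. Its heavy chain gene DYNC2H1 rose by 0.30. KIF17, a second ciliary kinesin, fell by 0.61, as did TMEM216 by 0.22 and, in a call lost without any one of 8 of the 10 libraries, MKKS by 0.14, while IFT20 and IFT46 had log2 values of -0.01 and 0.00. The list summed to 2638 ± 47.0 CPM in control and 3613 ± 50.7 CPM with miR-34a-WT.

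**Figure D4:**
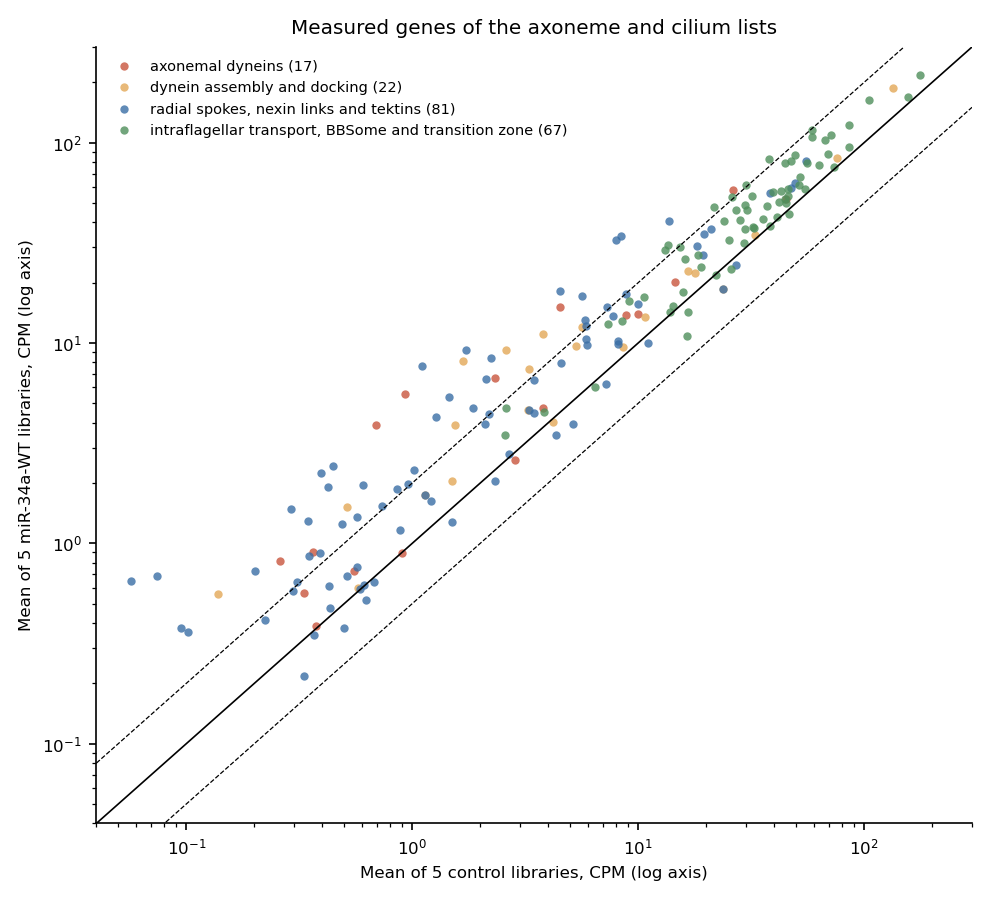
Mean CPM with miR-34a-WT (y axis) against control (x axis), both on log axes, for the 185 measured members of the 4 cilium lists, coloured by list. The solid line marks equal levels and the dashed lines a 2-fold difference, and most points lie above the solid line, the farthest from it at low control levels. For 18 of the 185 the control level was below the filter on low counts. These entered through a raised group, so the filter partly sets the pattern at the lowest control levels.

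The genes that regulate ciliogenesis did not move as one. Of 39 measured, 25 rose and 7 fell, with a median of 0.20. Without 1 gene below the filter on low counts in control, 24 of 38 rose. FOXJ1, the transcription factor of motile cilia, had 2, 4, 3, 6 and 0 counts in the control libraries and 18, 36, 29, 28 and 30 with miR-34a-WT. That is a mean of 0.0939 CPM in control and 0.935 CPM with miR-34a-WT, higher in every library but scarce in both groups (log2 change 3.19, SE 0.34). MCIDAS, which acts above FOXJ1 in multiciliated cells, read 4.5, 4.67, 4.32, 5.57 and 4.58 CPM in control and 3.02, 2.81, 2.43, 2.83 and 2.64 CPM with miR-34a-WT, the opposite direction, with no overlap. Its partners E2F4 and E2F5 fell by 0.21 and 1.66, and FOXN4, TP73 and MYB, which also act early in multiciliated cells, by 1.09, 0.57 and 1.63. RFX3 and RFX7 rose by 0.38 and 0.31, whereas RFX1 and RFX2 were not called (log2 values of 0.22 and 0.10, with edgeR adjusted p of 0.0804 and 0.314). RFX1 gained a call under 8 alternatives, among them DESeq2, a filter of 1 CPM and leaving out control replicate 5 or miR-34a-WT replicate 2. CCP110, which caps the mother centriole and holds back cilium growth, read 112, 113, 109, 107 and 109 CPM in control and 153, 143, 151, 137 and 150 CPM with miR-34a-WT, and its groups did not overlap. Its partners CEP97 and KIF24 rose by 0.39 and 0.75.

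Promoters of some risen cilium genes are shown because the X-box is the element that RFX factors bind. Whether it took part in these rises was not tested. The sequence searched was GTTNCC, a spacer of 2 bases and its inverted repeat GGNAAC, on both strands of the RefSeq promoter windows (GRCh38.p14), which run from 250 bases before to 50 after the start, and the match is in capitals.
PIH1D2 (chr11:112074007-112074036, minus strand): ccaggctgGTTACCCTGGTAACaggcgtcg
SPAG16 (chr2:213284272-213284301, plus strand): gcaacatcGTTGCCACGGTAACtgggaggc
CFAP45 (chr1:159900163-159900192, minus strand): ggctagtgGTTGCCAAGGTAACgcgtcaac
ARL6 (chr3:97764726-97764755, plus strand): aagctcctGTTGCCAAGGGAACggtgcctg
DNAH1 (chr3:52316206-52316235, plus strand): aggctgatGTTGCCATGGCAACccggatag
TMEM107 (chr17:8176404-8176433, minus strand): cgtacacgGTTACCAAGGCAACtgggcggt
These 6 genes rose by 1.54, 0.75, 0.93, 0.75, 0.49 and 0.70 on the log2 scale. CFAP45 stood at 0.228 to 0.279 CPM in the control libraries other than replicate 3, under the 0.321 CPM of the filter on low counts. Of 12145 tested genes with a window, 0.535% held the sequence, as did 1.26% of the 2777 that rose and 0.14% of the 2854 that fell. Among the 140 members of the 4 cilium lists with a window, 106 rose and 34 did not. The sequence was found in 8, all of which rose, and in none of the 34. Most members rose in any case, so 8 matches are too few to set the risers apart from the others. The share with the sequence was 5.71% on the cilium lists and 5.56% (2 of 36) among heat shock and chaperone genes. The shorter sequence GTTGCCA or GTTGCTA, which overlaps part of the longer one, was in 6.28% of tested genes and in 39.3% of cilium list members. Its share was close to equal in members that rose (40.6%) and that did not (35.3%). By list it was in 10 of 14 axonemal dynein genes and 1 of 11 assembly genes, and in 5.56% of heat shock and 12.8% of proteasome genes. A match in a window is a description of these letters only.

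Hedgehog signalling, which in vertebrates runs through the primary cilium, had 10 of 23 measured genes lower and 2 higher (median -0.13). The co-receptor genes CDON and GAS1 fell from 43.1 ± 3.37 to 25.9 ± 0.75 CPM and from 41.9 ± 2.55 to 25.2 ± 0.798 CPM. DISP2 fell by 1.53, and GLI1, a target of the pathway as well as its effector, by 0.68 from 2.13 ± 0.096 CPM. The receptor gene PTCH1, also a target, rose by 0.19.

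Ion channel genes mostly fell where they were called at all. Of 48 potassium channel genes 21 fell and 1 rose (median -0.28), and of 46 calcium and sodium channel genes 18 fell and 1 rose (median -0.20), against 21.3% and 18.9% of all tested genes. KCNC1, a fast delayed rectifier, read 17.7, 17.7, 18.4, 17 and 18.2 CPM in control and 10.3, 8.82, 9.33, 10.2 and 10.1 CPM with miR-34a-WT, without overlap. KCNAB3 fell by 0.76, and the sodium channel subunit gene SCN3B by 0.93. The exceptions were KCNJ10, which rose by 0.57 with overlapping groups, and ORAI2, a store-operated calcium channel, which rose from 42.6 ± 2.38 to 78.6 ± 4.53 CPM. STIM1, the sensor that opens such channels, fell from 58.0 ± 4.98 to 39.7 ± 1.66 CPM, and the heat-gated channel gene TRPV1 from 17.6 ± 1.43 to 11.1 ± 0.69 CPM.

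Genes of adhesion and matrix fell as well. Integrins, laminins and collagens had 33 of 75 genes lower and 5 higher (median -0.24), and 26 of the 33 held neither an 8mer nor a 7mer-m8 in the 3′ UTR. Most falls lacked such a site: of all fallen genes with a 3′ UTR, 2272 held neither and 1097 held one. ITGA6, a laminin receptor subunit, read 49.5, 46.8, 43.6, 45.8 and 43.9 CPM in control and 23.3, 22.6, 23.1, 21.9 and 21.8 CPM with miR-34a-WT, and the groups lay far apart. COL4A2, of basement membranes, and COL2A1 fell by 0.77 and 0.72, FN1, which encodes fibronectin, by 0.25, and the integrin gene ITGA8 rose by 0.43. Protocadherins and cadherins had 16 of 37 lower and 4 higher (median -0.26). Among these CELSR3 and FAT3 fell by 0.78 and 0.81, and PCDH7 rose by 0.33.

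Of 69 genes of axon guidance families (semaphorins, ephrins, netrins, slits and their receptors) 30 fell and 9 rose, with a median of -0.19. In this list 21 of the 30 that fell held an 8mer or a 7mer-m8, whereas of all fallen genes with a 3′ UTR 1097 held one and 2272 did not. Such a site was present in 36.2% of the 69 genes, against 17.7% of all tested genes with a 3′ UTR. EPHB2, an ephrin receptor kinase, read 25.1, 27.2, 25.4, 24.4 and 25.5 CPM in control and 12.1, 13.5, 13.1, 13.2 and 14.6 CPM with miR-34a-WT. EFNB1, one of its ligands, fell from 24.5 ± 1.37 to 13.4 ± 0.529 CPM, and both genes carry the 8mers shown above. SEMA4F fell by 0.87, and the netrin receptor genes NEO1 and UNC5B and the netrin gene NTN1 by 0.69, 0.73 and 0.62. ROBO1, PLXNB2 and NRP1 rose by 0.49, 0.40 and 0.39, and none of these 3 had a seed 6mer in the 3′ UTR.

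Nuclear receptor genes were lower in 15 of 34 cases and higher in 4 (median -0.24). RARG, a retinoic acid receptor, read 16.2, 19.3, 19.9, 21.7 and 21.4 CPM in control and 7.16, 7.46, 8.5, 7.4 and 8.48 CPM with miR-34a-WT, without overlap. RARA fell by 0.55, the orphan receptor gene NR6A1 by 0.77 and PPARG, the receptor of fat cell differentiation, by 0.77. The risers were PPARA, NR3C2, NR1D2 and RARB, by 0.32, 0.39, 0.45 and 0.37.

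In membrane lipid metabolism the largest falls were in sphingolipid genes, of which 14 of 39 fell and 5 rose (median -0.05). SGPP1, a phosphatase of sphingosine 1-phosphate, read 33.5, 35.9, 37.2, 37.2 and 36.3 CPM in control and 12.7, 13.9, 15.8, 12.1 and 11.9 CPM with miR-34a-WT. SMPD1, the acid sphingomyelinase, fell by 1.71 and the ceramide synthase genes CERS5 and CERS6 by 1.07 and 0.55. Genes of the first steps of synthesis were split, with SPTLC2 lower by 0.30 and SPTSSA and DEGS1 higher by 0.37 and 0.16. Fatty acid and peroxisome genes went both ways (15 higher and 13 lower of 56). At 26.8% and 23.2% they were near the shares of protein-coding genes, 23.6% and 24.7%. ACSL4, which activates arachidonic acid, fell from 74.3 ± 0.742 to 33.0 ± 2.13 CPM and the desaturase gene SCD5 from 21 ± 1.17 to 8.86 ± 0.482 CPM, while ECHS1, of mitochondrial oxidation, fell by 0.71. Among phosphoinositide enzymes, 22 of 67 lower and 15 higher, the kinase gene PIP5K1A fell by 0.65 and the phosphatase gene OCRL rose by 0.67.

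Genes of vesicle traffic were mixed by list. The shares lower and higher were 35.1% and 33.3% for clathrin and adaptor genes and 34.1% and 27.3% for sorting nexins and retromer. They were 19% and 40.5% for coats and Golgi tethers and 16.7% and 35.2% for Rab GTPases. Of protein-coding genes 24.7% fell and 23.6% rose. Clathrin and adaptor genes had 20 of 57 lower and 19 higher, sorting nexins and retromer 15 of 44 lower and 12 higher, coats and Golgi tethers 8 of 42 lower (5 without control replicate 2 or miR-34a-WT replicate 2) and 17 higher, and Rab GTPases 9 of 54 lower and 19 higher. The falls included AAGAB, which helps assemble adaptor complexes, from 144 ± 5.34 to 69.4 ± 2.42 CPM, the endophilin gene SH3GL1 from 137 ± 12.1 to 49.5 ± 1.96 CPM and the Golgi stacking gene GORASP2 from 146 ± 4.22 to 75.7 ± 4.2 CPM. PREB, which starts COPII coat assembly, fell by 0.86, whereas SEC24A, a cargo-binding COPII subunit, rose by 0.75. RAB23 and RAB40B rose by 0.79 and 0.55. Protein glycosylation genes fell in 32 of 107 cases and rose in 16 (median -0.07), with the branching enzyme gene MGAT4A, the core fucosyltransferase gene FUT8 and the sialyltransferase gene ST6GAL1 lower by 0.85, 0.74 and 0.95.

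Cytoskeletal genes changed in both directions. Kinesins and cytoplasmic dynein had 27 of 65 higher and 14 lower, and tubulins and microtubule proteins 13 of 54 higher and 16 lower. The shares that rose and fell were 41.5% and 21.5% on the kinesin list and 24.1% and 29.6% on the tubulin list. The tubulin list was thus near the 23.6% and 24.7% of protein-coding genes. TUBB, the main beta-tubulin gene of dividing cells, read 1501, 1591, 1661, 1591 and 1576 CPM in control and 939, 943, 973, 931 and 903 CPM with miR-34a-WT, without overlap. Its coding sequence resembles that of other tubulin genes, so its counts may include or lack shared reads. KIF1A, a motor of synaptic vesicle precursors, fell from 173 ± 13.2 to 85.1 ± 5.63 CPM, and the neuronal microtubule genes MAPT and STMN3 by 0.80 and 0.83. The dynactin gene DCTN5 fell by 0.66.

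Nuclear and chromatin lists were divided, and their named genes moved both ways. POM121 and POM121C, near-identical copies that counting may not separate, fell by 0.74 and 0.75 and belong with NUP210 to the nuclear pore list (9 of 33 lower, 11 higher). In the deacetylase complexes (9 of 32 lower, 9 higher) MTA2 and HDAC1 fell by 0.78 and 0.93. In SWI/SNF and Polycomb (15 of 47 in each direction) CBX2 and JARID2 fell by 1.01 and 0.65, and MTF2, a Polycomb accessory gene, rose from 95.1 ± 5.01 to 161 ± 5.09 CPM. DNA methylation genes rose in 4 and fell in 3 of 15 cases, with TET2 and MBD4 higher by 0.27 each and DNMT3B lower by 0.32. Zinc finger genes with ZNF names rose in 166 of 446 cases and fell in 45 (median 0.12), and of these ZNF367 rose by 0.96 and ZNF783 fell by 0.76. Of 37 HOX genes 10 fell and 4 rose, among them HOXC8 and HOXA13 lower by 0.50 and 0.51 and HOXA11 higher by 0.33. Homologous recombination and Fanconi genes rose in 10 and fell in 8 of 41 cases, including ATR higher by 0.35 and RAD51D and FANCG lower by 0.52 and 0.37. The shares that rose and fell were 24.4% and 19.5% on this list and 26.7% and 20% for DNA methylation. Both lists were near the 23.6% and 24.7% of protein-coding genes. The nuclear pore list, at 33.3% and 27.3%, and the deacetylase complexes, at 28.1% in each direction, were not far above those shares. SWI/SNF and Polycomb had 31.9% in each direction, and HOX genes 10.8% higher and 27% lower.

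Histone genes depended on 1 library. Their messages lack poly(A) tails, and of 25 measured 6 rose and none fell, yet the median was -0.36. The list summed to 164 CPM in control replicate 5, 72.7 to 75 CPM in the other control libraries and 91.1 to 102 CPM with miR-34a-WT. Without that library 9 rose. H3C6 rose from 3.96 ± 0.212 to 6.37 ± 0.505 CPM.

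Chaperone and proteasome genes rose by small amounts. Heat shock proteins and chaperones had 25 of 40 higher and 1 lower (median 0.17) and the proteasome 16 of 45 higher and 1 lower (median 0.10). HSP90AA1, a chaperone of the HSP90 family, read 3611, 3091, 3480, 3032 and 3165 CPM in control and 4359, 4445, 4100, 3991 and 4176 CPM with miR-34a-WT, the largest gain in CPM of any named gene, without overlap. DNAJB1, DNAJB4 and CHORDC1 rose by 0.45, 0.41 and 0.38, and HSPA8 and HSPD1 were not called at 0.09 and 0.00. The lower genes were BAG1 (lower by 0.17 on the log2 scale, with overlapping groups, a call lost without any one of control replicates 3 and 4 and miR-34a-WT replicates 3, 4 and 5) and PSME1, an activator of the proteasome, which fell by 0.37, whereas PSMD10 and PSMD14 rose by 0.48 and 0.29.

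Most genes of protein synthesis were not called. Of 85 cytosolic ribosomal genes 20 fell and 3 rose (median -0.08), and the 3 risers, RPL7L1, RPL39L and RPL26L1, are paralogs of core proteins. The share that fell, 23.5%, was near the 24.7% of protein-coding genes, and the share that rose, 3.5%, was below their 23.6%. RPS12 and RPL13A fell by 0.42 and 0.24. Without control replicate 2 the list had 12 falls, without miR-34a-WT replicate 3 it had 13, and without miR-34a-WT replicate 4 it had 12, while without miR-34a-WT replicate 2 it had 29 and with the 3′ UTR GC and length trend removed 30. Mitochondrial ribosome genes rose in 23 and fell in 7 of 84 cases (median 0.08), with MRPL18 and MRPL50 higher by 0.64 and 0.54 and MRPL10, which has an 8mer, lower by 0.57. The share that rose, 27.4%, was near the 23.6% of protein-coding genes, and 8.3% fell. Respiratory chain genes rose in 12 (14.1%) and fell in 3 (3.5%) of 85 cases, led by NDUFA5, higher by 0.44. With the 3′ UTR GC and length trend removed, 36 mitochondrial ribosome genes and 21 respiratory chain genes rose and 9 respiratory chain genes fell. Without any one of control replicates 2 and 5 or miR-34a-WT replicates 1, 3 and 4 the respiratory chain had 1 fall. tRNA synthetases rose in 14 and fell in 5 of 39 cases (3 falls without any one of control replicates 1, 2 and 5 or miR-34a-WT replicates 2, 3 and 4) and the spliceosome in 15 and 4 of 53, with FARSB and SF3B3 higher by 0.34 and 0.31. The shares that rose and fell were 35.9% and 12.8% for synthetases and 28.3% and 7.5% for the spliceosome. Among abundant genes, LDHA, ACTG1, EEF1A1 and GAPDH fell by 0.63, 0.26, 0.19 and 0.29, from 1204 ± 77.9, 3859 ± 242, 3610 ± 96.4 and 1646 ± 90.8 CPM, and SERBP1, MORF4L2, SMC1A and EIF4G2 rose by 0.31, 0.55, 0.42 and 0.17. Several of these have processed pseudogenes, which can take part of their reads.

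Signalling and metabolic lists each held changes in both directions, where 24.7% of protein-coding genes fell and 23.6% rose. The hypoxia list, with 24.1% lower and 17.2% higher, was not above those shares. Hypoxia genes had 7 of 29 lower and 5 higher, with NDRG1 and EPAS1 lower by 0.80 and 0.52, and 8 were higher without control replicate 4 or miR-34a-WT replicate 3. NRF2 and antioxidant genes had 6 of 34 lower and 11 higher, and the cystine carrier gene SLC7A11 and TXNRD1 rose by 0.87 and 0.42 whereas NFE2L1 fell by 0.47. In the JAK and STAT list (10 of 31 lower, 7 higher) STAT3 fell by 0.29. In the TGF-β and SMAD list (14 of 46 lower, 7 higher) the corepressor genes TGIF2 and SKI and the receptor gene ACVR1B fell by 0.93, 0.64 and 0.50. The Hippo list (10 of 27 lower, 9 higher) held PTPN14, lower by 0.54, and TEAD1 and STK3, higher by 0.47 and 0.49. Of immediate early and MAPK feedback genes 14 of 41 fell and 11 rose, with JUND and MYC lower by 0.62 and 0.30 and SPRED1 higher by 0.46, and without control replicate 2 the falls numbered 9.

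IMPDH1, an enzyme of guanine nucleotide synthesis, fell from 153 ± 15.4 to 65.3 ± 4.18 CPM on a list with 11 of 46 lower and 9 higher. For mTORC1 and amino acid sensing the counts were 9 of 42 lower and 11 higher, with SESN3 higher by 0.84 and RRAGC and EIF4EBP2 lower by 0.63 and 0.45. Clock genes fell in 10 and rose in 7 of 24 cases, PER1 and PER2 by 0.45 and 0.44 downward and NR1D2 by 0.45 upward. Cullin ligases and F-box genes rose in 29 and fell in 17 of 85 cases, with RBX1 and FBXW9 higher by 0.62 and 0.90 and FBXO10 lower by 1.04. Iron genes rose in 7 and fell in 6 of 25 cases, with IREB2 higher by 0.39 and STEAP1 and STEAP3 lower by 0.97 and 0.51. The one-carbon and nucleotide, mTORC1 and iron lists had 19.6%, 26.2% and 28% higher and 23.9%, 21.4% and 24% lower. These shares were near the 23.6% and 24.7% of protein-coding genes.

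The size of the fall went with the kind of seed match in the 3′ UTR. Of 820 genes with an 8mer 52.2% fell, against 42.0% of 1592 with a 7mer-m8 at best, 33.6% of 822 with a 7mer-A1, 30.5% of 1546 with a 6mer and 17.3% of 8831 with none. Relative to the genes with none, the median of the genes with an 8mer or 7mer-m8 lay at 0.066 to 0.12 about its mean over libraries in the control libraries and at -0.12 to -0.076 in the miR-34a-WT libraries, a shift of -0.19 on the log2 scale with no overlap. The shift was -0.26 for 8mers, -0.16 for 7mer-m8 sites, -0.095 for 7mer-A1 sites and -0.071 for 6mers. With 1 site it was -0.17, with 2 sites -0.32 and with 3 or more sites -0.28, and for genes with 2 or more 8mers it was -0.29. The classes also differed in composition and length. Median 3′ UTR GC content was 47.8% with an 8mer or 7mer-m8 and 41.9% with no seed 6mer, and median length 2538 and 943 bases. Among genes with no seed 6mer and 55% GC or more the shift was -0.097, with overlapping groups. What part of the site shifts goes with composition or length was not tested. With the 3′ UTR split into 4 equal parts, a single site in the part next to the stop codon went with a fall in 49.1% of genes and one in the part at the far end in 38.7%. The share that fell was 42.1% where the bases around the site were under 40% A or U and 42.1% where they were 60% or more. These 2 classes differed in median 3′ UTR GC content (56.8% and 37.6%) and length (1628 and 3247 bases). Of genes with no seed 6mer, 24.9% fell where the 3′ UTR was 55% GC or more and 11.2% where it was under 40%. The equal shares therefore do not compare like genes. The 3 genes that fell at least 4-fold all held an 8mer, as did 46 of the 226 genes with a 3′ UTR that fell 2- to 4-fold, while 73 of those 226 (32.3%) had no seed 6mer there.

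**Figure D5:**
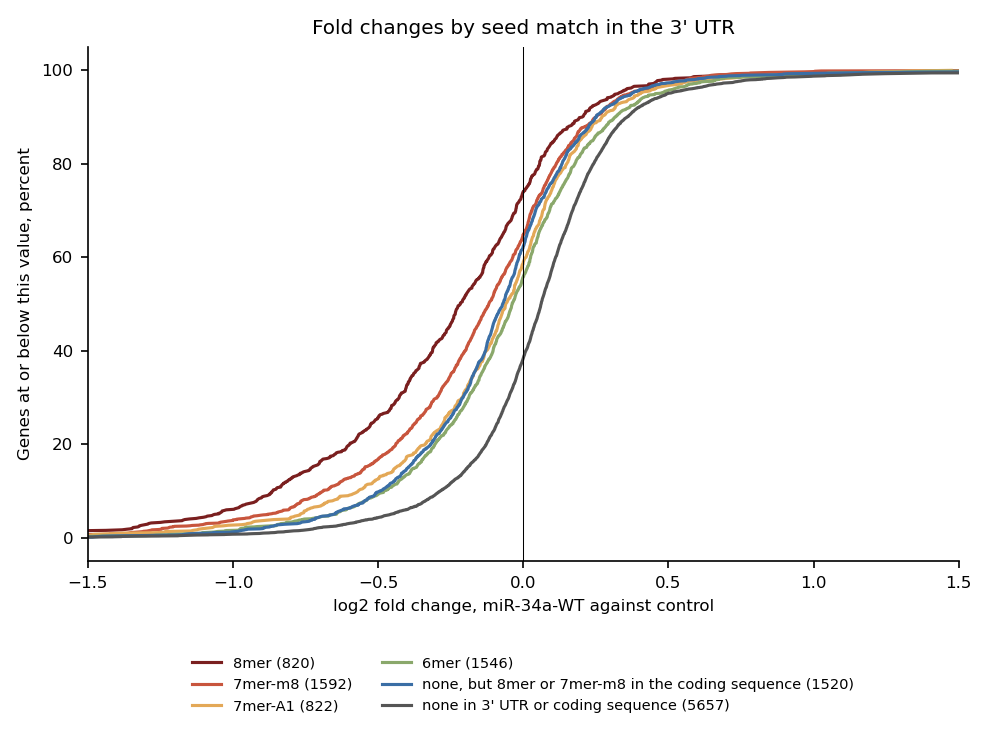
Cumulative share of genes (y axis, percent) by log2 fold change of miR-34a-WT against control (x axis), for genes grouped by their best seed match in the 3′ UTR, with the number of genes in brackets. The curve of 8mer genes lies farthest to the left, and genes with a match in the coding sequence only lie left of genes with none in either.

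Matches in the coding sequence went with falls too. Among genes with no seed 6mer in the 3′ UTR, 30.7% of 1520 with an 8mer or 7mer-m8 in the coding sequence fell, and 12.6% of 5657 with no seed 6mer in either fell. The classes differed in base composition, with a median 3′ UTR GC content of 46.8% and 41.0%. Composition also moved with the direction of change where no seed match was present: 38.3% of genes rose where the 3′ UTR was under 40% GC, 21.9% at 40 to 55% and 11.4% at 55% or more. In each of these 3 classes the libraries of the groups overlapped in their median shift (-0.085 to 0.029 in control and -0.0033 to 0.089 with miR-34a-WT for the class under 40%). The median 3′ UTR GC content was 40% for the cilium lists and 49.2% for potassium channels, against 42.9% for all tested genes. With the trend of GC content and length removed, 12 axonemal dynein, 61 radial spoke and 55 transport genes rose and 22 potassium channel genes fell, close to the counts above. Rises were more numerous in other lists with that trend removed: 6 Hedgehog, 9 HOX, 24 SWI/SNF and Polycomb, 11 JAK and STAT, 25 fatty acid and peroxisome, 16 homologous recombination and Fanconi and 16 one-carbon and nucleotide genes rose.

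The abasic duplex gave nearly the same profile for these genes. Between miR-34a-RS (4 libraries) and miR-34a-WT, 286 genes (1.56%) differed (edgeR, adjusted p under 0.05). Of the 271 genes that fell at least 2-fold with miR-34a-WT, 31 had a higher level and 2 a lower one in the miR-34a-RS libraries, and of the 154 that rose at least 2-fold 7 differed, all lower. These genes were picked by their miR-34a-WT levels, and the same libraries enter this comparison. The direction of these differences is therefore partly set by the choice of genes. MPP2 was at 25.8 ± 0.935 CPM with miR-34a-WT and 46.0 CPM with miR-34a-RS, a log2 difference of 0.84. TBC1D13, ACSL4 and EPHB2 were higher with miR-34a-RS by 0.59, 0.58 and 0.53. Of the 185 cilium list genes, 5 differed, each lower with miR-34a-RS, among them BBOF1 (-0.31), OSCP1 (-0.21) and TCTN2 (-0.18).

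Some of the named genes overlap a gene on the opposite strand, and in unstranded counts their values may include its reads. Among the cilium and centriole genes these were DNAAF1, CCDC103, PIH1D2, LRRC46, RSPH1, RSPH3, CFAP57, BBOF1, DRC3, TCTN1, KIF24, IFT20, IFT46, DNAH17, RFX2, TP73 and E2F5. Among the other rises they were NRAV, CLBA1, SMIM15, NEK11, MOK, CASC2, CCDC191, SEC24A, RAB23, ORAI2, MBD4, HOXA11, HSP90AA1, MORF4L2, SMC1A, EIF4G2, DNAJB1, SESN3 and NR1D2. Among the other falls they were FOXN3, AAGAB, SH3GL1, PREB, KCNC1, COL4A2, NEFM, HOXA13 and PSME1, and HSPD1, which was not called, has such a neighbour too.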

How the data were processed

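Total RNA of transfected HEK293T cells was, per the labels' protocols, made into TruSeq RNA v2 libraries, a kit that selects poly(A) RNA and does not mark strand. The values are raw read counts per gene as deposited by the authors, for 63140 genes. The submitters' processing notes name STAR 2.7.11a, featureCounts of Subread 2.0.3, edgeR 3.42.4 and GRCh38, and the annotation release and strand setting are not given in the sources used here.

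Samples were grouped by label (5 control, 5 miR-34a-WT, 4 miR-34a-RS). CPM values (counts scaled to library size) and fold changes were computed with edgeR 4.0.16 in R 4.3.3: TMM factors, filterByExpr by group, 1 robust quasi-likelihood fit of 3 group means over all 14 libraries and Benjamini-Hochberg adjustment over 18321 genes, with a threshold of 0.05. An SE is that of the log2 fold change, SDs are over libraries, and the biological coefficient of variation was 0.062. No 2 libraries of a group agreed within sampling noise (chi-square per degree of freedom 2.72 to 14.28). In simulated counts for 18321 genes in this comparison, 62%, 94%, 100% and 100% of genes changed 1.25-, 1.5-, 2- and 4-fold were called. Only 50 genes were changed at each size, far fewer than the 7373 called in the data, so these shares need not hold here.

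The comparison and all 49 lists were chosen with earlier results of these data known. Lists are given as counts and medians, with no test of a list. The name patterns behind them also took in CFAP418-AS1, CFAP298-TCP10L, IFT122P3, PCDH10-DT, ITGB3BP and ITGB1BP1, and CFAP298 and CFAP300 are on 2 cilium lists. Genes were named by a rule. Of called genes with a mean of at least 5 CPM and no overlap between groups, it took the falls and rises ranked 9 to 22. From the same genes it took the 6 largest changes in CPM in each direction and the 3 steepest falls without a seed match. From each list it took the 3 members with the smallest adjusted p and a mean of at least 5 CPM, with no condition on a call or on overlap. Not all of the 178 genes the rule gave are described, and a few items are not reported here. The following were named after their values were seen: FOXJ1, SPEF1, DNAH7, DNAAF1, DNAAF3, CFAP298, IFT88, KIF17, RFX3, RFX2, RFX1, RFX7, CCP110, CEP97, MCIDAS, TP73, KIF24, DRC3, RSPH3, SPAG16, CFAP43, GLI1, DISP2, PTCH1, KCNJ10, NEO1, ROBO1, NEFL, NEFM, INA, BAG1, DYNC2LI1, DYNC2H1, IFT20, IFT46, DNAI7, DNAH17, CFAP57, ROPN1L, RSPH1, SPAG17, CCDC39, CFAP157, ZMYND10, TMEM216, MKKS, E2F4, SCN3B, UNC5B, NTN1, PLXNB2, NRP1, ITGA8, FN1, RARA, NR3C2, CERS6, SPTLC2, SPTSSA, DEGS1, HSPA8, HSPD1, PPARA, CDH2, ARL6, CFAP45, DNAH1, DNAH10, DNAH2, DNAH3, RARB, RPL26L1, RPL39L, TMEM107, H1-4 and H3C2.

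Seed matches were found in the longest 3′ UTR (at least 20 bases) and the coding sequence of GENCODE release 29, whose genes hold 99.71% of counts. Alternatives used other scaling factors, filters, models (limma 3.58.1 voom, DESeq2 1.42.0), a GC and length trend (mgcv 1.9.3), a replicate block, and each library left out.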

Additional observations from a re-analysis of the deposited data

Results flagged for a closer look

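In each group of 5 libraries the highest or lowest value was compared with the rest, and 31 of 484 group values stood apart by more than Dixon's critical value, where chance gives about 1 in 20. No explanation is weighed for them. Control replicate 5 held 9 of the 31 and control replicate 1 held 6. Of the histone genes, control replicate 5 was far above the other control libraries, with H1-4 at 13.1 CPM (others 0.144 to 0.358), H3C2 at 9.03 CPM (others 0.202 to 0.385), H2BC11 at 8.04 CPM (others 2.74 to 3.26) and a sum over the list of 164 CPM (others 72.7 to 75). The same library was low for E2F5 at 39.4 CPM, SYT1 at 10.2 CPM, RFX7 at 44.6 CPM and RBX1 at 50.8 CPM, and high for KIF17 at 18.1 CPM.

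Control replicate 1 was low for SH3GL1 at 116 CPM, HDAC1 at 453 CPM, PER1 at 73.2 CPM and SPTSSA at 50.4 CPM, and high for ATR at 97.4 CPM and STK3 at 28.1 CPM. Control replicate 2 was high for NDRG1 at 60.3 CPM and DNAH10 at 1.24 CPM and had the lowest share of mitochondrially encoded counts, 2.75% (others 3.02% to 3.1%). CFAP45 was high in control replicate 3 at 0.474 CPM, and MCIDAS in control replicate 4 at 5.57 CPM.

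Of the miR-34a-WT libraries, replicate 2 was low for TCTN1 at 78.3 CPM, PTCH1 at 34.9 CPM, ST6GAL1 at 7.86 CPM and HOXA13 at 30.9 CPM and high for RBX1 at 107 CPM. Replicate 1 was high for KIF17 at 11.6 CPM and SMPD1 at 5.69 CPM. Replicate 3 was high for MOK at 43.6 CPM and TXNRD1 at 331 CPM, replicate 4 was high for FBXO10 at 8.89 CPM, and replicate 5 was high for PCDH7 at 48.1 CPM.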

How the results depend on the processing

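The counts of changed, higher and lower genes and the shift of genes with a strong seed match were computed under each alternative, and all kept their direction. In 73 of 74 cases the counts stayed within 1.5 times and the shift within the spread between libraries, and the other was the shift with the shortest 3′ UTR of each gene in place of the longest, a larger one of -0.22. Leaving out each library in turn gave 6742 to 7375 changed genes, 3228 to 3572 higher and 3328 to 3831 lower, and a shift of -0.194 to -0.18. Which direction held more genes depended on the scaling and the libraries: 47.1% of calls were higher in the analysis reported, 50.4% with relative log expression factors, 51.9% with DESeq2 (7106 calls) and 55.2% with the 3′ UTR GC and length trend removed, a fit of 13611 genes. Analysis of the genes with a 3′ UTR only, chosen after seeing the data, gave 6807 calls. With the replicate number as a block 8817 genes were called, and 27 proteasome and 22 respiratory chain genes rose, 31 cytosolic ribosomal genes fell and RFX1 was called. Same-numbered libraries deviated from their group means with a correlation of -0.16 to 0.56 (mean 0.29, against -0.07 for libraries of different numbers), and 3 of 5 control libraries correlated best with their own number. The pair numbered 2 had the negative value, so the numbers were not taken as pairs, and the correlations are only a hint from the data. Of 5060 values of single genes, 31 lost and 14 gained a call, and none changed direction. Counts of list members moved by over 1.5 times in 60 of 1960 cases. Rises under 1 CPM rest on few counts, and small changes may have gone uncalled. The 62% recovery of 1.25-fold changes came from simulated counts in which far fewer genes changed, so it need not hold here. The measured RNA is poly(A) RNA at 24 h, so changes in protein were not measured.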
